A study of Mus musculus with 39 samples.

Results

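The comparison examined here set cloned mouse embryos that had been injected with Spi-C mRNA against cloned embryos that had not, and took 16 of the 39 arrays of the series. The 16 arrays are those whose labels name these 2 groups. The 8 Spi-C NT arrays held embryos made by somatic cell nuclear transfer (SCNT) from cumulus cells and injected with Spi-C mRNA into the cytoplasm at the pronuclear stage, 4 at 1.0 mg/ml and 4 at 0.1 mg/ml. The 8 TSA(-) arrays held cumulus cell clones with no injection and without trichostatin A (TSA), an inhibitor of histone deacetylases. Oocytes, donors and embryos were all of the (B6xDBA/2)F1 background, every array of embryos came from 10 pooled 2-cell embryos cultured for 24 h, and all RNA had been amplified linearly in 2 rounds before Cy3 labelling. No label described clones injected with buffer or with another mRNA, so the injection itself and the Spi-C message cannot be told apart. The other groups, given only for reference, were 7 arrays of unfertilized oocytes (OC), 6 of in vitro fertilized 2-cell embryos (IVF), 6 of clones treated with 5 nM TSA for 8 h (TSA(+)) and 4 of cumulus cells, each from 500 cells.

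Spi-C, encoded by *Spic*, is a transcription factor of the ETS family, whose members share a DNA-binding domain that recognizes a GGAA core. It is known for its part in the formation of red pulp macrophages of the spleen, which recycle iron, and it is one of the ETS factors transcribed when the embryonic genome is activated. In the mouse the major wave of this activation takes place at the 2-cell stage, while RNAs stored in the oocyte are being degraded. The question put to these arrays was which genes differed in clones given the Spi-C message.

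The groups differed in more than the injection. All 8 Spi-C NT arrays had been read on a G2505C scanner with version 10.5.1.1 of the Feature Extraction software, on 2 slides and 1 scan day. All 8 TSA(-) arrays had been read on a G2505B scanner with version 9.5.3.1, on 6 slides and 5 scan days. No scan day, slide or scanner type was shared between them, so the injection, the scanner, the scan day and the software cannot be told apart for any difference given here. The 75th percentile of the intensity lay between 1201 and 1470 on the TSA(-) arrays and between 2114 and 2667 on the Spi-C NT arrays. The net signal of the negative control spots was 14.5 to 17.3 and 46.1 to 52.1, respectively. The share of probes well above background overlapped, with 66.9 to 77.6% in TSA(-) and 69.4 to 74.99% in Spi-C NT. No 2 arrays of a group were identical, and Pearson's r between arrays over probes was 0.944 to 0.965 within TSA(-) and 0.960 to 0.972 within Spi-C NT. Levels below are log2 intensities from which the 75th percentile of the same array was subtracted, so a difference of 1 is 2-fold, and negative levels lie under that percentile. The labels and the design text call the arrays biological replicates.

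The level of *Spic* itself was examined first. The array has 2 probes for *Spic*, and neither was higher in the clones labelled as injected with its mRNA. On the brighter probe the level was 1.63 at the lowest, 2.08 at the median and 2.57 at the highest over the 8 TSA(-) arrays, and 1.13, 1.59 and 1.79 over the 8 Spi-C NT arrays. The ranges overlapped, with the Spi-C NT arrays in the lower part. The difference, Spi-C NT minus TSA(-), was -0.53 ± 0.15 (log2, SE; limma adjusted p = 0.00693) on this probe and -0.49 ± 0.15 (limma adjusted p = 0.0161) on the other, which did not pass the threshold of 0.01. The first of these passed narrowly, and leaving out a single array ended the call for 10 of the 16 arrays, with adjusted p-values (limma) up to 0.0185. These were TSA(-) replicates 2, 3, 4, 5 and 7, replicates 1 and 4 at 1.0 mg/ml and replicates 2, 3 and 4 at 0.1 mg/ml. The difference was negative on both probes in every setting tried. At 1.0 and 0.1 mg/ml the differences from TSA(-) on the brighter probe were -0.58 and -0.48, so the higher concentration gave no higher level. The mean level of this probe was 3.99 in IVF, 3.03 in TSA(+) and -0.72 in OC. Where the probes lie relative to the injected message was not analysed here, and the labels therefore could not be checked against the targeted gene.

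Of the genes studied together with *Spic*, *Eif1a* encodes the translation initiation factor eIF1A, which is transcribed early in genome activation. Its brighter probe read 2.62 to 3.44 in TSA(-), with a median of 3.14, and 2.96 to 3.53 in Spi-C NT, with a median of 3.16. The groups overlapped almost wholly, and the difference was 0.08 ± 0.12 (SE; limma adjusted p = 0.643), against a mean level of 4.12 in IVF. The sign of this value turned with centring on the median. The dim second probe gave -0.79 ± 0.26 (limma adjusted p = 0.0228), so the probes of *Eif1a* disagreed and neither was called. This probe passed as lower with quantile normalization (-0.96; limma adjusted p = 0.00984), centring on the median (-0.97; limma adjusted p = 0.00812) and normexp (-0.77; limma adjusted p = 0.00197), and when replicate 1 at 1.0 mg/ml was left out. *Pou5f1*, which encodes the pluripotency factor Oct4, was lower. Its level was 3.80 to 4.33 in TSA(-), with a median of 4.05, and 3.02 to 3.50 in Spi-C NT, with a median of 3.35. The arrays did not overlap, and the difference was -0.75 ± 0.11 (SE; limma adjusted p = 8.31e-06). *Elf3*, an ETS factor of epithelia, was also lower without overlap, at 0.32 to 1.18 in TSA(-) and -0.65 to 0.16 in Spi-C NT, with a difference of -0.79 ± 0.15 (SE; limma adjusted p = 0.000137). *Ppp1r8*, which encodes the nuclear inhibitor of protein phosphatase 1, was lower on 1 of 2 probes, by -0.88 ± 0.21 (SE; limma adjusted p = 0.00206), which did not pass with the replicate number as a block (limma adjusted p = 0.048). The cytokine gene *Ifng* gave -0.16 and -0.04 and the kinase gene *Hipk1* -0.26 and -0.22 on their 2 probes each, with adjusted p-values from 0.335 to 0.924, and none of these 4 was called.

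**Figure D1:**
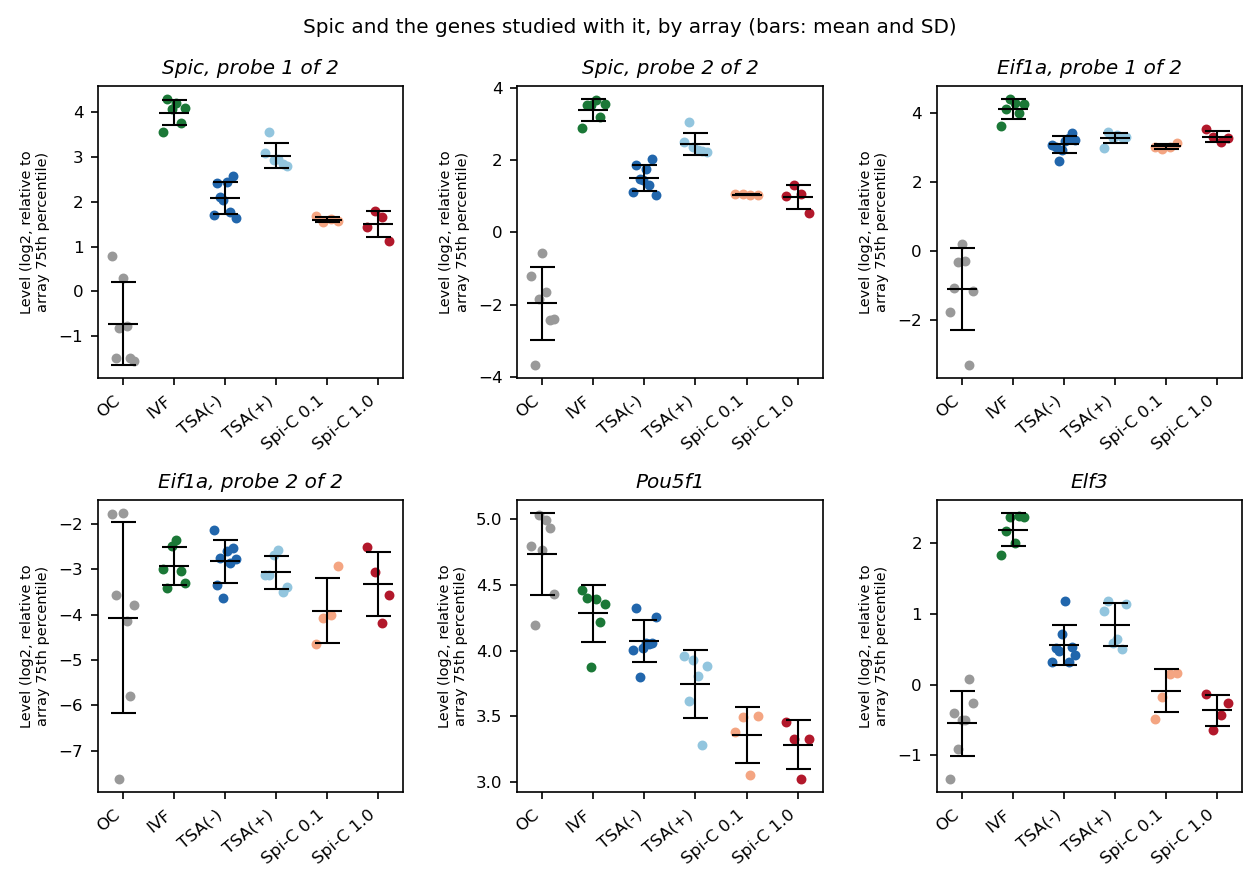
Level (log2, relative to the 75th percentile of the array) of *Spic*, *Eif1a*, *Pou5f1* and *Elf3* in each array of 6 groups; each point is an array, and the bars give the mean and SD. The Spi-C arrays overlap the lower TSA(-) arrays for both *Spic* probes, while *Pou5f1* and *Elf3* do not overlap between the clones with and without Spi-C mRNA.

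Over the whole array many probes differed between the groups. Among 39517 probes tested, 8272 were called (20.9%), of which 4620 were higher (11.7%) and 3652 lower (9.24%) in Spi-C NT. Of these, 3455 differed at least 2-fold, 2214 higher and 1241 lower. For 3734 probes (9.45%) the 8 arrays of one group did not overlap the 8 of the other. The median difference over all probes was 0.13, and it was 0.01 with quantile normalization, -0.04 with centring on the median and -0.25 with normexp. The split by direction followed this scaling. Higher probes made up 55.9% of the calls as reported, 51.5% with quantile normalization, 36.2% with centring on the median and 22.8% with normexp. The number called in the same direction under all 4 scalings was 5290, with 2003 higher and 3287 lower. The root mean square difference between an array of Spi-C NT and one of TSA(-) had a median of 1.36 (log2, 64 pairs, range 1.18 to 1.51). This range overlapped that between TSA(-) arrays, which was 1.09 to 1.43 with a median of 1.22 (28 pairs). The medians were 1.09 between Spi-C NT arrays (28 pairs) and 1.29 between TSA(+) and TSA(-) arrays (48 pairs).

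As reported, the direction also moved with the brightness of the probe. In the dimmest quintile of the probes the median difference was 0.31, and 5.49% were called higher and 0.645% lower. In the brightest quintile the median difference was -0.07, and 12.4% were called higher and 22.2% lower. With quantile normalization the medians of the quintiles lay between -0.03 and 0.05, and with normexp that of the dimmest was -0.51 and that of the brightest -0.05, so the trend of the medians was not seen with the first and ran the other way with the second. Centring on the median gave 0.13 and -0.25. Its part in the results on gene lists was not tested. With 1 probe for each of 16283 named genes, 24.5% were called, 13.1% higher and 11.4% lower, with a median difference of 0.07, and in the brightest quintile of the genes 11.7% were higher and 24.2% lower.

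**Figure D2:**
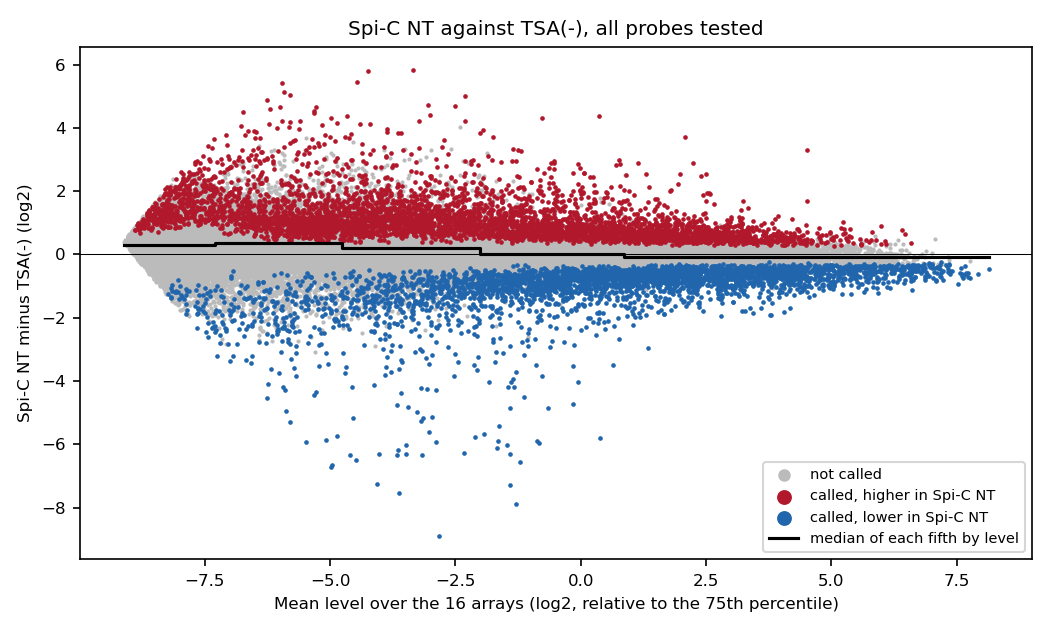
Difference between Spi-C NT and TSA(-) (log2, vertical axis) against the mean level over the 16 arrays (log2, horizontal axis) for the 39517 probes tested; each point is a probe, coloured by its call at an adjusted p under 0.01, and the black line gives the median of each quintile of the probes by level. The median falls from 0.31 in the dimmest quintile to -0.07 in the brightest on this scaling, against -0.03 and 0.01 with quantile normalization and -0.51 and -0.05 with normexp.

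The 12 genes with the largest increase, taken among those called under all 4 scalings and without overlap, held 4 olfactory receptor genes, a family of odorant receptors with many similar members. The share of this large family among all genes tested was not counted, so the number is no result about the family. *Olfr1497* read -8.85 to -3.10 in TSA(-), with a median of -5.82, and -1.49 to 0.77 in Spi-C NT, with a median of -0.31. The difference was 5.82 ± 0.82 (SE; limma adjusted p = 3.82e-06), and 5 of the 8 TSA(-) arrays were well above background. *Olfr1161* was well above background in no TSA(-) array and was at least 12.8-fold higher in Spi-C NT on this scaling (limma adjusted p = 8.80e-10), whereas normexp, which adds 50 to each intensity, gave a log2 difference of 0.65. *Olfr890* and *Olfr1026* were higher by 3.103 and 2.96. Among genes of signalling and the nucleus, *Ier2*, an immediate early gene, was higher by 5.79 ± 0.70, with 3 of 8 TSA(-) arrays well above background. *Spry2*, an inhibitor of receptor tyrosine kinase signalling, read -6.07 to -2.83 in TSA(-), with a median of -5.32, and -0.81 to 1.41 in Spi-C NT, with a median of 0.34. It was higher by 5.02 ± 0.54 (SE; limma adjusted p = 5.80e-08). *Pold4*, a small subunit of DNA polymerase delta, was higher by 3.84, *Arid5b*, a DNA-binding protein, by 3.11, and *Timeless*, which acts at the replication fork, by 3.34, with 7 of 8 TSA(-) arrays well above background. The other members were *Lrrc3b* at 3.93, *Akap4*, a protein of the sperm tail, at 3.04 with 1 TSA(-) array well above background and at 0.26 with normexp, and *Tmc1*, a part of the mechanotransduction channel of hair cells, at 3.01. *Tmc1* had the smallest SE of these 12 genes, 0.13, with levels from -4.84 to -3.90 in TSA(-) and from -1.65 to -1.13 in Spi-C NT (limma adjusted p = 8.17e-15).

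The 12 genes with the largest decrease were further from 0. *Fahd2a* read 0.06 to 2.92 in TSA(-), with a median of 2.51, and -5.83 to -4.08 in Spi-C NT, with a median of -5.07. The difference of -7.29 ± 0.59 (SE; limma adjusted p = 3.14e-10) corresponds to 157-fold. *Zbp1*, an interferon-induced sensor of Z-form nucleic acids, was lower by -6.30 ± 0.57, with arrays from -0.47 to 2.95 in TSA(-) and from -5.53 to -2.33 in Spi-C NT. *Naip5*, a sensor of bacterial flagellin, was lower by -6.26. Genes of developmental regulators were among them: *Foxd3*, a forkhead factor of pluripotent and neural crest cells, was lower by -6.13 ± 0.34, *Pax2*, a paired-box factor of the kidney and nervous system, by -6.02 ± 0.41, and the growth factor gene *Fgf8* by -4.86 ± 0.56. *Foxd3* read 0.22 to 1.89 in TSA(-), with a median of 1.52, and -5.55 to -3.92 in Spi-C NT, with a median of -4.56. The rest were *Cacna2d2*, a calcium channel subunit (-5.94), *Sdr42e1*, a dehydrogenase of the short-chain family (-5.91), *Syt14*, a synaptotagmin (-5.16), *Ift52*, a protein of intraflagellar transport (-4.98), *Celf3*, an RNA-binding protein (-4.85) and *Tmem35a* (-4.82). On the Spi-C NT arrays *Syt14* was well above background on 2 of 8, *Tmem35a* on 5 and *Ift52* on 7, and with normexp these differences were -2.90, -3.29 and -3.80. Their adjusted p-values (limma) ran from 3.17e-13 for *Foxd3* to 1.22e-05 for *Tmem35a*.

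The promoters of genes in both sets are shown because Spi-C, as an ETS factor, binds a GGAA core. RefSeq promoters of the build GRCm38.p6, each 300 bases from 250 before to 50 after a start of the gene, were found for 20 of the 24 genes. *Akap4*, *Pax2* and *Celf3* had several starts, and the counts below are of genes. The letters searched, on both strands, were GAGGAA, the longer GAGGAAGT, which contains it, and CGGAAGT. The first of these was present in promoters of 4 of the 11 higher genes and 2 of the 9 lower ones. CGGAAGT was present only in that of *Fahd2a*, and GAGGAAGT in those of none of the 20 genes. The 4 sequences below run 5′ to 3′ on the strand of the gene, and the capitals mark every match on either strand. *Tmc1* lies on the minus strand at chr19:20954153-20954452, *Arid5b* on the minus strand at chr10:68278677-68278976, *Fahd2a* on the minus strand at chr2:127444516-127444815 and *Foxd3* on the plus strand at chr4:99656049-99656348.
Tmc1: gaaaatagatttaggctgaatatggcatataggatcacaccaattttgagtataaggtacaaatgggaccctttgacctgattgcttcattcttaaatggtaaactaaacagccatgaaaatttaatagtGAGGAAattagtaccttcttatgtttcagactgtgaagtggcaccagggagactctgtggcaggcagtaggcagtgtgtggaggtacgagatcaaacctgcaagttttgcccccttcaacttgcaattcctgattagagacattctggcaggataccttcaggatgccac
Arid5b: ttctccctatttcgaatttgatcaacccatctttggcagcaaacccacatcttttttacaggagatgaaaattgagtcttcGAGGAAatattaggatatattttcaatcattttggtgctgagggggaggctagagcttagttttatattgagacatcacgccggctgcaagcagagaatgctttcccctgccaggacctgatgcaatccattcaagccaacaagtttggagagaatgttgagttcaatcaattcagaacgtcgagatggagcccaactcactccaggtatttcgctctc
Fahd2a: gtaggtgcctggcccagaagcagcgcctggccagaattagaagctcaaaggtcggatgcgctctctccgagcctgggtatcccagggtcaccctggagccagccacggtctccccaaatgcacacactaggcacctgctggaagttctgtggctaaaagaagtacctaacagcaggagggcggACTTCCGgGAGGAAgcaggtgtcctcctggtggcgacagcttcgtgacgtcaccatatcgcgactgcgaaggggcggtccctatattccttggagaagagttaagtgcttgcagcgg
Foxd3: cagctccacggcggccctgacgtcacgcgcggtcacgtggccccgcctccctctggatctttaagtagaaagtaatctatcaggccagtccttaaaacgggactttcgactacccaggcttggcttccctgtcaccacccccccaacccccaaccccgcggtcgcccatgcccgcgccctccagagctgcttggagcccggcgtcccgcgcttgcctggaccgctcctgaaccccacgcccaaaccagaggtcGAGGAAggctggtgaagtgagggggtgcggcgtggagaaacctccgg
In *Fahd2a* the capitals hold CGGAAGT, read on the opposite strand, 1 base before GAGGAA. The same letters are common: among the 12988 tested genes with a promoter, 30.7% held GAGGAA, 3.38% GAGGAAGT and 10.9% CGGAAGT. For genes called higher these shares were 30.2%, 3.35% and 9.88% (1700 genes with a promoter), and for genes called lower 29.9%, 3.43% and 15.9% (1517 genes). The shares of GAGGAA and GAGGAAGT in both sets thus lay within 1 percentage point of those of all genes, while CGGAAGT, a form of the core bound by many ETS factors, was more frequent among all genes called lower. Among those called lower at 2-fold or more it was present in 11.3% (397 genes), close to the share of all genes, and among those called higher at 2-fold or more in 5.45% (624 genes). These shares were not tested. In the brightest quintile of the genes 24.2% were called lower, against 1.38% in the dimmest, and the share of CGGAAGT by brightness was not counted.

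The large differences belonged to single probes. For 8 of the 24 genes the array held 11 further probes that were tested, and 0 of these 11 were called in the same direction by limma or by Tukey's test, with 3 in the same direction at an unadjusted p under 0.05. The other calls were 2 in the opposite direction, and 9 of the 11 were not called. The brighter probe of *Ier2* gave -0.23 (limma adjusted p = 0.401) where the other gave 5.79, and the second probe of *Fahd2a* gave -0.21 (limma adjusted p = 0.614). *Timeless* was lower by -0.78 on its brighter probe, and a second probe of *Cacna2d2* was higher by 1.35. Other probes of *Arid5b* gave 0.66 to 1.46 and that of *Olfr1497* 1.59, positive but not called. Over all genes with 2 tested probes, 1636 of 4224 had at least 1 probe called. Both probes were called in the same direction for 241 of these, or 14.7%, and in opposite directions for 72.

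The same probes also varied between arrays of a single group. The mean level of the 12 lower genes ran from -5.22 to -4.24 over the Spi-C NT arrays and from -0.90 to 1.53 over the TSA(-) arrays. In the 6 IVF arrays, which had no injection and were read on the first scanner, it ran from -2.91 to 0.59, and in the 4 cumulus cell arrays from -2.78 to -0.52. The cumulus cell arrays were read on the G2505C scanner with version 10.5.1.1, as the Spi-C NT arrays were, but on another slide and scan day. They held another cell type, and the net signal of their negative control spots was 18.3 to 21.6, against 46.1 to 52.1 in Spi-C NT. The cumulus cell arrays read -5.12 to -4.58 for the 12 higher genes, against -1.87 to -0.57 in Spi-C NT. The median SD over the IVF arrays was 1.49 for these 12 genes, 0.89 for the 12 higher genes and 0.43 over all probes. The IVF array with the lowest mean of the 12 lower genes (-2.91) had the highest mean of the 12 higher genes (-3.13), and that with the highest (0.59) had the lowest (-4.76). TSA(-) replicate 2 was the lowest of its group in the first (-0.90) and the highest in the second (-4.11). The 24 genes had been chosen for large differences without overlap with TSA(-). For 11 of the 12 higher and 8 of the 12 lower, the Spi-C NT arrays did not overlap the IVF and TSA(+) arrays either. The share of all probes with no such overlap was not counted, and the IVF and TSA(+) arrays were read on the first scanner. This count is therefore no independent support for a difference. What sets the shared variation of these genes between arrays was not tested.

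**Figure D3:**
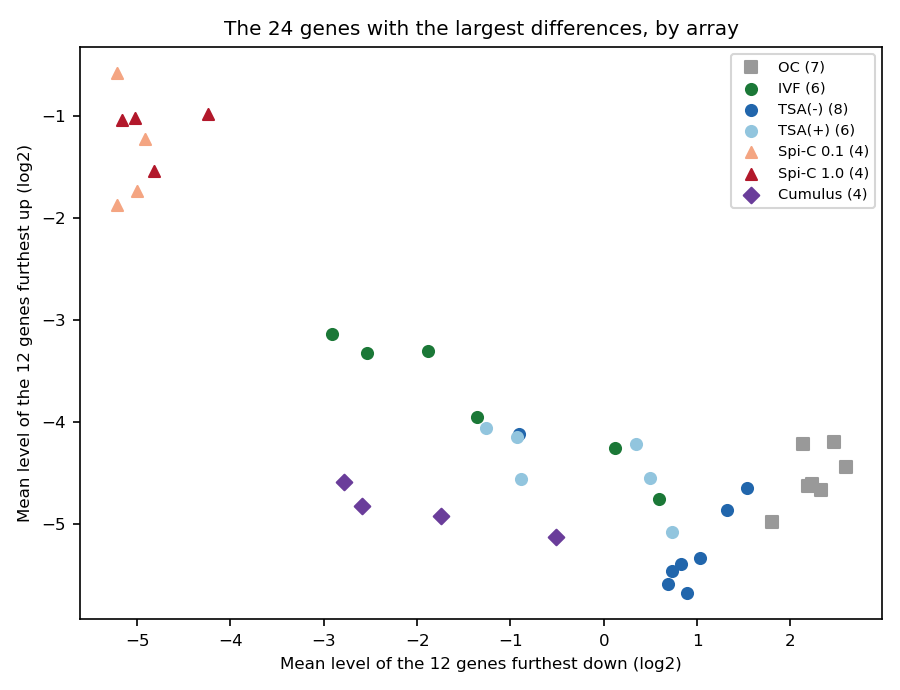
Mean level (log2, relative to the 75th percentile of the array) of the 12 genes with the largest increase (vertical axis) against that of the 12 with the largest decrease (horizontal axis), chosen on Spi-C NT against TSA(-); each point is an array, coloured by group. The Spi-C arrays stand apart at the upper left, from -5.22 to -4.24 on the horizontal axis, and the IVF arrays spread from -2.91 to 0.59.

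The 2 concentrations of the message differed at few probes. Taken alone against TSA(-), 1.0 mg/ml gave 5617 DEGs (14.2%) and 0.1 mg/ml gave 5424 (13.7%), and these comparisons share the TSA(-) arrays. Set against each other within 1 scanner, day and pair of slides, 1.0 and 0.1 mg/ml differed at 2 of 39517 probes (0.00506%), with 1624 at an unadjusted p under 0.05. Both had no gene symbol and were higher at 1.0 mg/ml, by 3.84 (A_52_P421779) and 2.78 (A_52_P587928). The first read -5.37 to -3.38 at 1.0 mg/ml and -8.70 to -7.58 at 0.1 mg/ml, and the second -6.19 to -4.85 and -8.83 to -6.85. The differences from TSA(-) at 1.0 and 0.1 mg/ml were 3.01 and 3.01 for *Tmc1* and -5.87 and -6.39 for *Foxd3*.

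Histone genes were the list with the largest share of higher members. Of 36 core and linker histone genes tested, 17 were higher and 3 lower, with a median difference of 0.54, against 13.1% higher and a median of 0.07 over all genes. The list kept a positive median under the other scalings, at 0.66 with quantile normalization, 0.36 with centring on the median and 0.17 with normexp. Replication-dependent histones, which package newly made DNA and whose mRNAs end in a stem-loop in place of a poly(A) tail, made up most of the calls. Among H2A genes 6 of 9 were higher, among H4 genes 4 of 4, among H2B genes 3 of 6, among H3 genes 1 of 3 and among linker H1 genes 2 of 10. *H2ac15* read -4.11 to -1.54 in TSA(-), with a median of -3.32, and -1.61 to 0.92 in Spi-C NT, with a median of 0.32. The difference was 2.93 ± 0.41 (SE; limma adjusted p = 3.42e-06). *H2ac13*, *H2ac10* and *H2ac20* were higher by 2.87, 1.95 and 1.92, but these genes are near-identical in sequence and their probes may share signal, so they were not independent. The 3 lower members were *H1f8*, the linker histone of the oocyte (-0.63), *H3f3b*, which encodes the replacement histone H3.3 (-0.61), and *H2az1*, which encodes the variant H2A.Z (-0.48); *H3f3b* and *H2az1* lost their call with quantile normalization. *H3f3a*, the other gene of H3.3, was higher by 0.45 on the brightest of its 3 probes (limma adjusted p = 0.00894), and its other probes gave 0.19 and 0.13 and were not called.

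The histone levels split the Spi-C NT arrays without regard to concentration. For *H2ac10*, 5 of the 8 arrays read 3.87 to 4.32 and 3 read 2.28 to 2.52, beside 0.95 to 2.33 in TSA(-). The 3 lower arrays were replicate 1 at 1.0 mg/ml and replicates 2 and 4 at 0.1 mg/ml, and they lay on both slides. They were also the 3 lowest in *H2ac15*, *H2ac13*, *H2ac20* and *Ier2*, with *Ier2* at -2.22 to -1.98 in these and -1.41 to -0.28 in the other 5. The part of this variation between arrays in the histone result was not tested.

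**Figure D4:**
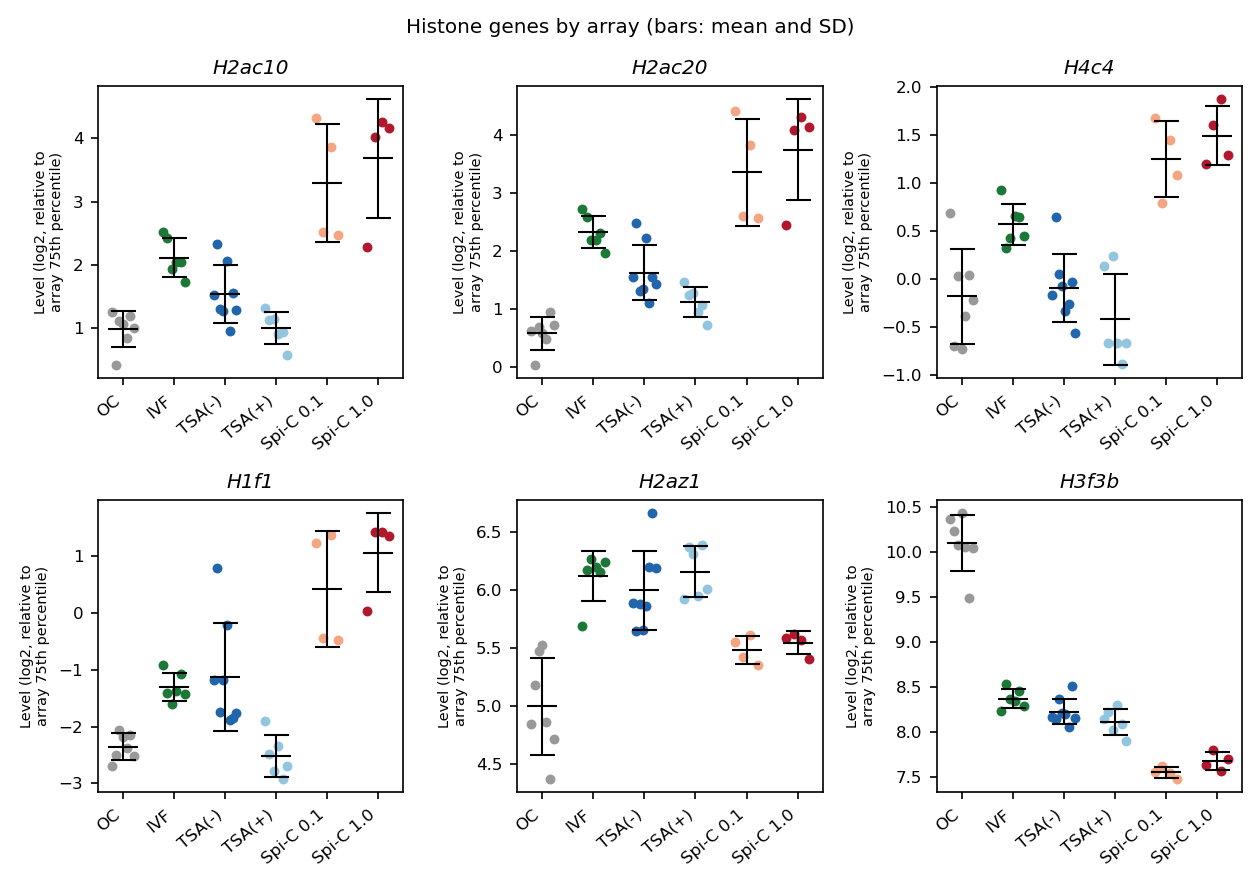
Level (log2, relative to the 75th percentile of the array) of 6 histone genes in each array of 6 groups; each point is an array, and the bars give the mean and SD. *H2ac10*, *H2ac20*, *H4c4* and *H1f1* are higher in the Spi-C arrays, which fall into an upper and a lower set for *H2ac10*, while *H2az1* and *H3f3b* are lower.

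Genes of the nucleolus and of RNA processing were lower more often than higher. Of 82 genes of ribosome biogenesis, which make and modify rRNA and assemble the ribosomal subunits, 29 were lower (35.4%) and 3 higher, with a median of -0.33, against 11.4% lower over all genes and 24.2% over the brightest quintile, in which 47.6% of the list lay. The median stayed negative under the other scalings, from -0.51 to -0.28. *Nop58*, a core protein of box C/D small nucleolar ribonucleoproteins, read 5.18 to 5.78 in TSA(-), with a median of 5.52, and 4.18 to 4.66 in Spi-C NT, with a median of 4.48. The arrays did not overlap, and the difference was -1.04 ± 0.11 (SE; limma adjusted p = 4.10e-08). *Nol9*, *Rrs1* and *Tsr3* were lower by -1.53, -1.25 and -1.17, and *Nol12*, *Rrp36* and *Emg1* were the higher members, by 0.68, 0.59 and 0.41. Of 107 genes of the spliceosome and the hnRNP proteins, 28 were lower (26.2%) and 8 higher. *Prpf38b*, a splicing factor, read 2.91 to 3.63 in TSA(-) and 1.31 to 1.83 in Spi-C NT and was lower by -1.78 ± 0.10. *Prpf19*, a ubiquitin ligase of the spliceosome, was lower by -1.79 ± 0.13, and *Sf1*, the branch point binding protein, was higher by 1.36. Factors of 3′ end processing and export (15 of 54 lower, 5 higher) and of RNA polymerase II and the general machinery (22 of 84 lower, 7 higher) had similar shares. Each of these 3 lists had 51.9 to 60.7% of its genes in the brightest quintile, and their shares of lower genes were close to the 24.2% of that quintile.

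Genes of translation did not move one way. Of 47 initiation factors, 8 were lower (17.0%) and 6 higher (12.8%), with a median of -0.02, against 11.4% and 13.1% over all genes. With quantile normalization 6 were lower and 10 higher. *Eif3m* (-0.96), *Eif4a3* (-0.91), *Eif3e* (-0.79) and *Eif5a2* (-0.76) were lower, while *Eif4ebp2*, a repressor of cap-dependent initiation, was higher by 1.16, *Eif1ad* by 0.82 and *Eif3d* by 0.69. Further probes of *Eif3e*, *Eif5a2* and *Eif1ad* were called in the opposite direction. Cytosolic ribosomal proteins (18 of 79 lower, or 22.8%, and 8 higher) had a median of -0.06, which turned to 0.07 with quantile normalization. Of this list 81.0% lay in the brightest quintile of genes, in which 24.2% were lower.

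Of 27 ETS factors, the family of Spi-C, 5 were lower (18.5%) and 3 higher (11.1%), against 11.4% and 13.1% over all genes. Their median of 0.09 turned negative with centring on the median (-0.09) and normexp (-0.20). *Erf*, a repressor of the family, was lower by -1.99 ± 0.26, with arrays from 0.26 to 1.499 in TSA(-) and from -1.34 to -0.52 in Spi-C NT. *Elf2* (-0.68) and *Etv2*, which directs blood and endothelial fate (-1.32), were lower besides *Elf3* and *Spic*, which were given above. *Spi1*, which encodes PU.1, the closest known relative of Spi-C with *Spib*, was higher by 1.70, but 1 of 8 TSA(-) arrays was well above background and the sign turned with normexp (-0.18). *Fev* and *Etv4* were higher by 1.04 and 0.69, and neither was called with normexp, nor was *Etv4* with quantile normalization or centring on the median. Red pulp macrophage and iron genes, which Spi-C is known for, had 4 of 28 higher and 4 lower (14.3% each), near the shares of all genes.

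Genes typical of the 2-cell stage were not higher in Spi-C NT. Of 13 tested, 4 were lower and 0 higher by limma or by Tukey's test, with 1 higher at an unadjusted p under 0.05, and the median of -0.26 was negative under all 4 scalings. Of the list 69.2% lay in the brightest quintile of genes, in which 24.2% were lower and 11.7% higher. *Gm5662* read 3.35 to 5.67 in TSA(-), with a median of 4.27, and 2.51 to 3.57 in Spi-C NT, with a median of 3.05. It was lower by -1.34 ± 0.26, and its mean level in IVF was 6.78. *Tcstv3* and *Tcstv1*, genes of a cluster transcribed at the 2-cell stage, were lower by -1.18 and -1.02, and *Spic* was the fourth. The mean levels of *Tcstv3* and *Tcstv1* were 5.71 and 5.94 in IVF and 3.60 and 4.16 in OC. *Zfp352* and *Zscan4c*, both known from 2-cell embryos, gave 0.25 (limma adjusted p = 0.233) and 0.19 (limma adjusted p = 0.791) on their brighter probes and -0.67 (limma adjusted p = 0.00566) and -0.08 (limma adjusted p = 0.922) on their dimmer ones. Members of these clusters are similar in sequence, so their probes may share signal. Of 37 pluripotency factors, 4 were higher and 4 lower (10.8% each), against 13.1% higher and 11.4% lower over all genes.

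Oxidative phosphorylation was the other list with many higher members. Of 87 genes, 22 were higher (25.3%) and 9 lower (10.3%), with a median of 0.18, which was 9.2e-05 with centring on the median, under which 10 were higher and 17 lower. *Ndufa12*, a subunit of complex I, read -1.44 to -0.14 in TSA(-) and 0.02 to 0.80 in Spi-C NT and was higher by 1.12 ± 0.17 (SE; limma adjusted p = 9.98e-06). *Atp5g2* (1.05), *Ndufc2* (0.96) and *Ndufa10* (0.91) were higher, whereas *Cox15* (-1.37), *Atp5b* (-0.89), *Uqcrfs1* (-0.82) and *Cox6c* (-0.77) were lower. Genes of glycolysis and the pentose phosphate pathway were lower in 8 of 27 (29.6%) and higher in 3. Those of one-carbon metabolism were lower in 9 of 35 (25.7%) and higher in 3. Over all genes 11.4% were lower, and in the brightest quintile, which held 51.9% and 34.3% of these lists, 24.2% were lower.

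The heat shock and unfolded protein response list had 17 of 61 genes lower (27.9%) and 2 higher, with a median of -0.17, against 11.4% lower over all genes and 24.2% in the brightest quintile, in which 59.0% of the list lay. *Hspa4l*, a chaperone of the Hsp110 family, read 2.73 to 3.08 in TSA(-) and 1.46 to 2.02 in Spi-C NT and was lower by -1.19 ± 0.10. *Hspa12a* was lower by -1.77, *Herpud1*, an endoplasmic reticulum stress gene, by -1.22, and *Bag3*, a co-chaperone, by -1.01. *Chac1*, which degrades glutathione and is a target of the same stress response, was higher by 1.13 ± 0.16, and *Canx* by 0.48. Proteasome genes had 9 of 49 lower and 7 higher, or 8 and 10 with quantile normalization, and genes of p53 and DNA damage 8 of 43 lower and 2 higher.

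In the cell cycle lists lower members outnumbered higher ones, except that with quantile normalization the anaphase-promoting complex had 4 higher and 2 lower. Of 54 cyclins, kinases and their regulators, 15 were lower (27.8%) and 5 higher, with a median of -0.23. Over all genes 11.4% were lower, and in the brightest quintile, which held 35.2% of this list, 24.2% were lower. *E2f4*, a repressor of the E2F family, read 1.56 to 2.32 in TSA(-) and -0.18 to 0.46 in Spi-C NT and was lower by -1.79 ± 0.13 (SE; limma adjusted p = 6.56e-11). *Cdkn2d*, a CDK inhibitor, was lower by -1.19 ± 0.13, *Mycl* by -1.14 and *Rbl2* by -1.13. *E2f2* was higher by 1.56 ± 0.19, *Cdk5* by 0.91, *E2f8* by 0.84 and *Ccnb2*, a mitotic cyclin, by 0.58. Genes of the spindle and kinetochore (18 of 69 lower, 4 higher), of DNA replication licensing (12 of 49 lower, 4 higher) and of the anaphase-promoting complex (4 of 18 lower, 2 higher) had 22.2 to 26.1% lower, with 62.3 to 77.8% of their genes in the brightest quintile. With quantile normalization the spindle and kinetochore genes had 15 lower and 10 higher.

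Genes of the response to RNA and interferon were examined because the embryos had been given RNA made in vitro. Of 55 tested, 3 were higher and 5 lower, below the shares of all genes. *Cxcl10*, an interferon-induced chemokine, read 2.01 to 3.08 in TSA(-) and 1.38 to 1.92 in Spi-C NT and was lower by -0.87 ± 0.16. *Ifngr1* (-0.89) and *Dhx58*, which encodes the RNA sensor LGP2 (-0.81), were lower besides *Zbp1*. *Ifnar1*, a receptor chain for type I interferon, was higher by 0.72, *Bst2* by 0.47 and *Ifi35* by 0.47, and these 3 lost their calls with centring on the median.

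Among oocyte and maternal-effect genes 15 of 48 were lower (31.3%) and 5 higher, but with quantile normalization 8 were lower and 8 higher, and 66.7% of the list lay in the brightest quintile. *Oog3*, an oocyte gene, read 7.86 to 8.15 in TSA(-) and 6.89 to 7.26 in Spi-C NT and was lower by -0.93 ± 0.08. *Btg4*, an adaptor of mRNA deadenylation, was lower by -1.07 ± 0.12, *Omt2b* by -0.73 and *Rfpl4* by -0.73. *Zp3*, which encodes a protein of the zona pellucida, was higher by 0.65, *Npm2* by 0.81, *Nlrp2* by 0.76 and *Ftdc2* by 1.17. Of the markers tested, 7 of 7 for the oocyte and 5 of 5 for the 2-cell stage were well above background on all 16 arrays. The 2-cell set did not define that stage. The mean level in OC was above that in Spi-C NT for *Tcstv3*, *Tcstv1* (4.16 against 3.28) and *Zscan4c* (0.67 against 0.58). *Eif1a* was higher in cumulus cells (3.74) than in either group of clones. Only *Zfp352* was lower in both OC (-3.76) and cumulus cells (-7.23) than in both groups of clones. The summed level of the oocyte markers was 9.06 to 9.30 in TSA(-) and 8.54 to 8.84 in Spi-C NT. Of 10 markers of cumulus cells, the donor type, 0 were called by limma or by Tukey's test, with 1 at an unadjusted p under 0.05. Their level summed over unlogged values was 2.22 to 3.18 in TSA(-) and 2.33 to 2.90 in Spi-C NT. It rested mostly on *Amhr2*, with means of 2.59 and 2.55, ahead of *Has2* at -2.75 and -2.82. *Amhr2* had a mean of 2.25 in the cumulus cell arrays, no higher than in the clones, so this sum does not measure donor RNA. Of 4 leukocyte markers *Cd3e* was higher by 2.26, on a summed level of -0.66 to -0.12 in TSA(-) and 0.60 to 1.53 in Spi-C NT, while *Ptprc*, the marker of all leukocytes, gave -1.13 (limma adjusted p = 0.186) and was well above background on 1 of 8 Spi-C NT arrays. Of 3 erythroid markers 0 were called by limma or by Tukey's test, and 0 had an unadjusted p under 0.05. In pooled embryos fewer cells of a type and less RNA per cell cannot be told apart.

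Of the remaining lists, cumulus and granulosa genes had 4 of 53 higher and 3 lower, leukocyte and erythroid genes 2 of 17 higher and 0 lower (limma and Tukey's test; 1 lower at an unadjusted p under 0.05), histone deacetylases and acetyltransferases 6 of 31 higher and 3 lower, and genes of H3K9 methylation, a list that also holds the DNA methyltransferases and TET enzymes, 4 of 29 higher and 5 lower. Over all genes 13.1% were higher and 11.4% lower. The shares were 7.55% and 5.66% for the cumulus and granulosa list and 11.8% and 0% for the leukocyte and erythroid list. They were 19.4% and 9.68% for the deacetylases and acetyltransferases and 13.8% and 17.2% for the H3K9 list. Centring on the median gave 4 higher and 6 lower deacetylases and acetyltransferases, and with quantile normalization the H3K9 list had 6 higher and 4 lower. The study had picked 43 genes of transcription that were higher in IVF than in OC and lower in TSA(-) than in IVF, but equivalent in TSA(+) and IVF. Of 41 tested, 5 were higher (12.2%) and 6 lower (14.6%), with a median of -0.04. These genes had been chosen with the TSA(-) arrays, so this count is not independent of them.

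**Figure D5:**
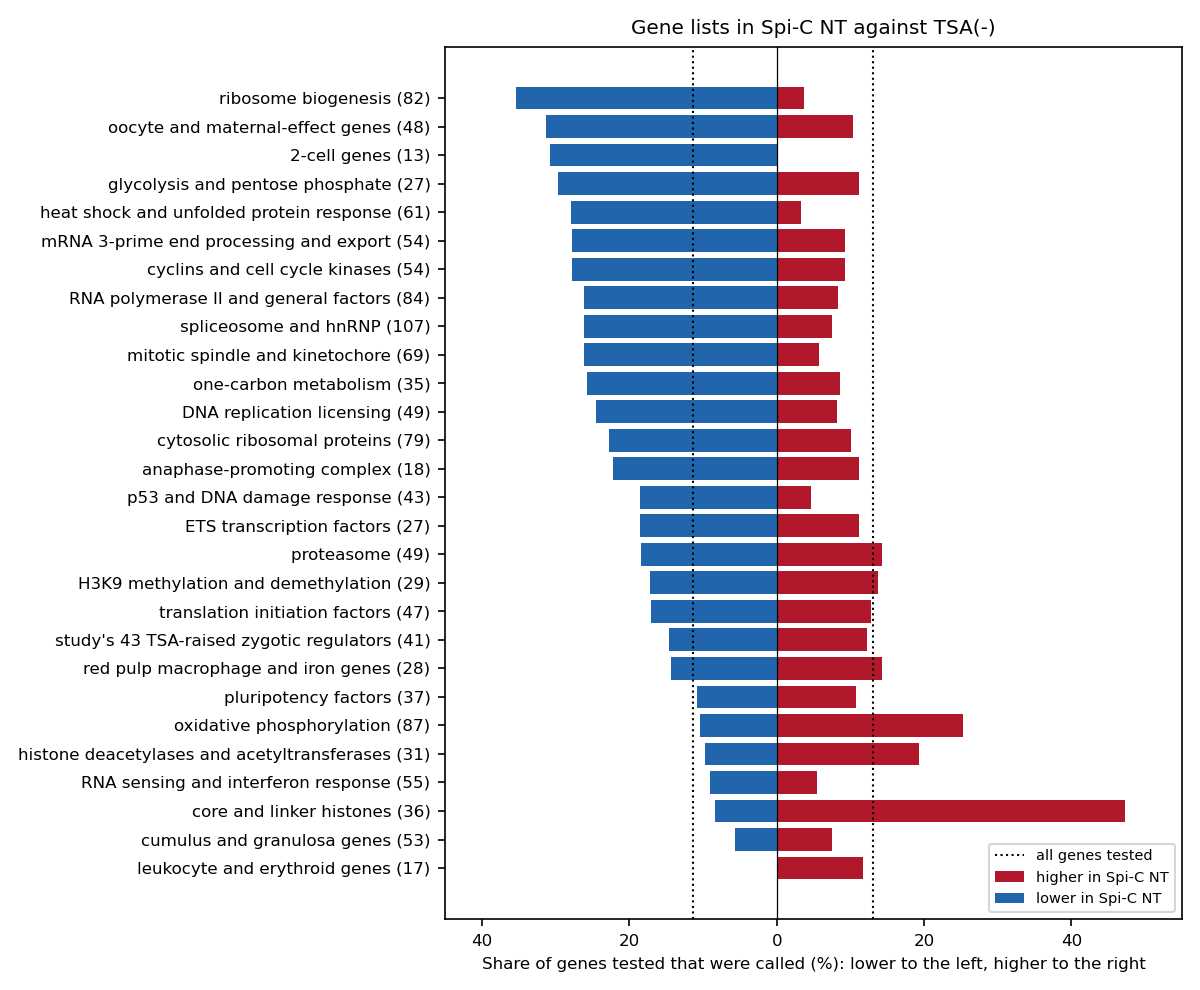
Share of the genes of each list that were called higher (red, to the right) or lower (blue, to the left) in Spi-C NT against TSA(-), in percent of the genes tested, whose number stands in parentheses; the dotted lines give the shares over all 16283 genes, 13.1% higher and 11.4% lower. Ribosome biogenesis reaches furthest to the left, at 35.4%, and histones furthest to the right, at 47.2%.

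Zygotically activated genes (ZAGs) and zygotically degraded genes (ZDGs) were taken from IVF against OC, which share no array with the clones. Of 8936 ZAG probes (22.6% of all), 940 were higher (10.52%) and 1055 lower (11.8%) in Spi-C NT, with a median difference of -0.0031. Of 16927 ZDG probes (42.8%), 2367 were higher (13.98%) and 1870 lower (11.05%), with a median of 0.15 against 0.13 over all probes. Over all probes, most of which lay in these 2 sets, 11.7% were higher and 9.24% lower. Among the 13654 probes in neither set, 9.62% were higher and 5.32% lower. Lower calls were thus more frequent in both sets than in the remaining probes, and the reason was not tested. Under the scalings the lower ZAGs outnumbered the higher ones in each case, with 1105 higher and 1352 lower by quantile normalization, 355 and 1253 by centring on the median and 963 and 1205 by normexp. The sets were drawn anew under each scaling. For ZDGs the direction turned, with 1919 higher and 2985 lower by centring on the median and 2109 and 11000 by normexp. Against IVF, Spi-C NT had 14294 DEGs (36.2%) and TSA(-) had 10304 (26.1%); these comparisons share the IVF arrays, and the first spans both scanners.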

How the data were processed

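RNA of pooled oocytes, 2-cell embryos or cumulus cells was hybridised to 1-colour whole mouse genome arrays. The authors deposited scanner files with the background-subtracted intensity of each spot, made with Agilent Feature Extraction 9.5.3.1 per the labels, although the headers of the Spi-C NT files name version 10.5.1.1. They also deposited a processed table of log2 values centred on the median of each probe, used here only as an alternative. From the scanner files, control spots and 1820 probe values flagged as outliers were left out, spots of a probe were averaged, and the 75th percentile of an array was subtracted from its log2 intensities. Probes with an intensity of at least 10 on at least 1 array of 2-cell embryos were kept, 39517 in all. One linear model over IVF, TSA(-), TSA(+) and Spi-C NT was fitted with limma 3.58.1 (R 4.3.3), and a probe was called where its two-sided p, adjusted by Benjamini and Hochberg, was under 0.01; the threshold is that of the study. The sensitivity fits used statmod 1.5.0 for random blocks, and tables and plots used Python 3.11.15, pandas 2.3.3 and matplotlib 3.10.9. The scripts were tested on simulated data.

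Probes were given gene symbols by matching the accession named for each probe in the scanner files to RefSeq transcripts. In all, 23374 of 41174 probes had a symbol. For lists, the brightest probe of each gene was used. The genes given by name were those the study names, the 12 with the largest difference in each direction among probes called in the same direction under 4 scalings, without overlap between groups and, in the higher group, well above background throughout, and up to 4 called members in each direction of each list described. Markers, and genes and probes named for a disagreement between probes or for a difference between concentrations, were added to these. The arrays, lists and tests were chosen with earlier results of these data known, and lists are described by counts and medians with no test. The number of arrays limits the precision, and p-values measure the spread between arrays, since the labels do not say that arrays came from separate animals. Alternatives were other scalings, background correction, filters, tests, thresholds, samples in the fit, slide, scan day and replicate number as blocks, and leaving out each array. No gene coordinates other than RefSeq promoters were used, and where probes lie in their transcripts was not analysed here.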

Additional observations from a re-analysis of the deposited data

Results flagged for a closer look

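Within the groups of 8 arrays some genes named above had a single array far from the rest by Dixon's test, which by chance singles out about 1 in 20 groups. TSA(-) replicate 2 stood apart in 9 of these cases. It was low for *Fahd2a* (0.063, nearest array 2.31), *Zbp1* (-0.47, nearest 1.51), *Foxd3* (0.22, nearest 1.33), *Pax2* (0.34, nearest 1.39), *Sdr42e1* (-1.55, nearest 1.86), *Syt14* (-5.40, nearest -2.04), *Fgf8* (-0.62, nearest 1.91) and *Erf* (0.26, nearest 1.02), and high for *Arid5b* (-2.17, nearest -3.20). Other TSA(-) arrays stood apart for *Elf3* (replicate 5 at 1.18), *H1f8* (replicate 1 at 3.47) and *Rfpl4* (replicate 8 at 6.83). Among the Spi-C NT arrays, those at 1.0 mg/ml stood apart for the second probe of *Spic* (replicate 4 at 0.53), *Zbp1* (replicate 2 at -2.33), *Rfpl4* (replicate 2 at 5.79) and *Eif4ebp2* (replicate 1 at -0.61), and that of replicate 3 at 0.1 mg/ml for *Fev* (-2.50).

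The 2 concentrations differed by limma at 2 probes without a gene symbol. A_52_P421779 was higher at 1.0 than at 0.1 mg/ml by 3.84 (limma adjusted p = 0.000351), and A_52_P587928 by 2.78 (limma adjusted p = 0.00149).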

How the results depend on the processing

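Of the settings tried, 8272 DEGs became 17006 with normexp, 5424 with 0.1 mg/ml alone, 5409 with the replicate block and 3455 at 2-fold or more. The 4620 higher DEGs became 2895 with centring on the median, 3077 with 1.0 mg/ml alone, 2845 with 0.1 mg/ml alone, 3025 with the replicate block, 7225 at an adjusted p under 0.05 and 2214 at 2-fold or more. The 3652 lower DEGs became 13135 with normexp, 2384 with the replicate block and 1241 at 2-fold or more. Leaving out single arrays gave 7385 to 8303 DEGs, 4055 to 4526 higher and 3313 to 3777 lower. Centring on the median left 355 ZAGs higher and 2985 ZDGs lower, and normexp 11000 ZDGs lower. The cause of these shifts was not tested, apart from the smaller number of arrays or the stricter threshold where the setting itself sets it. Slide and scan day as random blocks gave 7455 and 7605 DEGs. Arrays of the same replicate number did not deviate together (r of their deviations from -0.087 to 0.056), so the replicate block pairs arrays that share only a number.

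The brighter probe of *Spic* did not pass with the clones alone (-0.53), at 1.0 (-0.58) or 0.1 mg/ml (-0.48), or with slide or scan day as a block (-0.53 each), and gave -0.60 to -0.46 without single arrays. The other probe passed with centring on the median (-0.66), normexp (-0.47) and the filter on background (-0.49), and, leaving out single arrays, gave -0.56 to -0.41 and passed without TSA(-) replicate 1 (limma adjusted p = 0.00935) or 8 (limma adjusted p = 0.00722). The sign turned for *Eif1a* (-0.092 with centring on the median, -0.060 at 0.1 mg/ml), 1 probe of *Hipk1* (0.0034 at 0.1 mg/ml), *Spi1* (-0.18 with normexp) and 1 probe of *Ifng* (0.019 with quantile normalization, 0.014 with normexp, 0.025 at 0.1 mg/ml, and 0.079, 0.046, 0.043 and 0.00060 without TSA(-) replicate 6 or 7, replicate 3 at 1.0 mg/ml or replicate 2 at 0.1 mg/ml; without single arrays it ranged from -0.20 to 0.079). Over the named probes other than the 2 of *Spic*, and all settings, 3232 values kept their direction and call, 131 lost the call, 4, all of the second probe of *Eif1a*, gained it and 11 turned.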
